A study of Mus musculus with 31 samples.

Results

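The ligand-gated ion channels of the mouse brain array comprised 58 probes of 51 genes, among 23040 spots that covered 15096 named genes. A probe was taken when the platform annotation gave it a single gene symbol in the series of GABA-A and GABA rho (Gabr), glycine (Glr), AMPA (Gria), kainate (Grik), delta (Grid), NMDA (Grin), nicotinic acetylcholine (Chrn), 5-HT3 (Htr3) or P2X (P2rx) receptor subunits. Each of 31 BXD/TyJ strains had 1 glass array of whole-brain RNA, read in 2 colours. BXD strains are recombinant inbred lines made from C57BL/6J and DBA/2J mice, so each line carries a fixed mosaic of both parental genomes. The strains fell by number into BXD33-42 (7 strains) and BXD1-32 (24 strains). RNA of each strain was a pool of 3 males aged 8 weeks, labelled with Alexa Fluor 647, and whole-brain RNA of C57BL/6J males of the same age, labelled with Alexa Fluor 555, was the common reference on every array, without dye swaps. Strains therefore have no replicate array, and a difference between strains cannot be told apart from a difference between arrays or pools. Genotypes at the receptor loci were not analysed here.

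Ligand-gated ion channels open a pore within the receptor when a transmitter binds, and so carry fast synaptic transmission. GABA-A and glycine receptors are pentamers that pass chloride and mostly inhibit the adult neuron; nicotinic and 5-HT3 receptors are pentamers of the same superfamily that pass cations. Ionotropic glutamate receptors are tetramers that carry most fast excitation in the brain, and P2X receptors are trimers gated by ATP. The subunits that assemble set where a receptor sits, how fast it closes and which drugs act on it. The symbol rule also took subunits that are best known outside brain synapses, among them the 5 muscle-type nicotinic subunits (Chrna1, Chrnb1, Chrnd, Chrne and Chrng), the rho subunits of the retina and Chrna9 of the inner ear.

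RefSeq upstream sequences were available for 37 of the 51 genes (build GRCm38.p6). Those shown are the 250 bases before the annotated start of 5 genes on which the comparisons below turn. Gria2 and Glrb, and likewise Gabra4 and Gabrb1, are neighbours on a chromosome whose negative correlation passed on the 16 core arrays described below, though not over all 31 strains, and for Gabra4 and Gabrb1 it rested on BXD5. Gabra6 was the sole member called between the strain sets, a call lost with array group as a term. Capitals mark a match on either strand: in Gria2 to the core of the RE1 element, known as the binding sequence of REST, which represses neuronal genes outside neurons; in Glrb to GGACAGC, a stretch within that core; in Gabra4 and Gabra6 to CCAAT; and in Gabrb1, whose downstream annotated start is shown, to GCATGCG, a stretch of the sequence bound by NRF1.
Gria2 (chr3:80802836-80803085, minus strand): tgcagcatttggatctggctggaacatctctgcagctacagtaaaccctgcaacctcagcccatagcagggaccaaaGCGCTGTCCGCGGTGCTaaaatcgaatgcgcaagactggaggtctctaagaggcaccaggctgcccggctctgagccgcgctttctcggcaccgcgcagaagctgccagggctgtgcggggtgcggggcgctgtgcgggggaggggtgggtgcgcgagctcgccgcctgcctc
Glrb (chr3:80913661-80913910, minus strand): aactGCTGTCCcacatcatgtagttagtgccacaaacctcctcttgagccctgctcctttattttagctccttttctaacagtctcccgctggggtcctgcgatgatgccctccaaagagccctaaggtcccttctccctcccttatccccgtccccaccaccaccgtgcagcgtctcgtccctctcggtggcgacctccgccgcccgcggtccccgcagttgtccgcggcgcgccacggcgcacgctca
Gabra4 (chr5:71658309-71658558, minus strand): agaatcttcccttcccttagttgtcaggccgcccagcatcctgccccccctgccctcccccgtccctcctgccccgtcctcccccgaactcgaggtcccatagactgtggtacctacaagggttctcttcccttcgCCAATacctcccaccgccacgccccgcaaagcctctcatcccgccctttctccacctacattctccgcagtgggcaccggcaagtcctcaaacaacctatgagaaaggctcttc
Gabrb1 (chr5:71699682-71699931, plus strand): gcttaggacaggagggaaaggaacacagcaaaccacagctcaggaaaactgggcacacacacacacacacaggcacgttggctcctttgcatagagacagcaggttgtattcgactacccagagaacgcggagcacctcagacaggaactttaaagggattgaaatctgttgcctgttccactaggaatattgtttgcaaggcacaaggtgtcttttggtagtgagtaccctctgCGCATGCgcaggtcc
Gabra6 (chr11:42321073-42321322, minus strand): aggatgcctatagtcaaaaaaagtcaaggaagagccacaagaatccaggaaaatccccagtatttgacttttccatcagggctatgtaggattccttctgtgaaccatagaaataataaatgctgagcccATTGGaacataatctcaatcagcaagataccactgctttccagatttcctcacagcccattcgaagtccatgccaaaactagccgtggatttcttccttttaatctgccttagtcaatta
The RE1 core was present in 4 of 32851 upstream windows of the same length, or 0.0122%, and among the member genes in Gria2 alone, from 173 to 157 bases before the start. The shorter GGACAGC was present in 5.28% of windows and in Gria2, Glrb and P2rx4 among the members. GCATGCG occurred in 3.02% of windows and in 1 member gene, Gabrb1, from 15 to 9 bases before its start. CCAAT is common, with 33.8% of windows and 12 of the 37 member genes. TATAAA was found in 12.4% of windows and in none of the 5 sequences shown. A match describes these letters and does not show that a factor binds there.

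The deposited values are log ratios. They were taken as log2 and as strain over C57BL/6J, which the sources do not state, so every sign below would turn if the ratio ran the other way. As ratios of one whole brain to another, they give no level of a receptor, and a smaller share of cells cannot be told apart from less RNA per cell. The arrays stood in 3 groups on the leading principal components. On the first, with 29.1% of the variance, 7 arrays stood apart, here called PC1 arrays: from BXD33-42 those of BXD36 and BXD38, and from BXD1-32 those of BXD6, BXD8, BXD20, BXD23 and BXD28. On the second, with 12.1%, 8 arrays stood apart, called PC2 arrays: the remaining 5 of BXD33-42 and those of BXD15, BXD22 and BXD27. The other 16 are called core arrays, and no label gives a batch that matches these groups. Spots at the eighth place of each run of 8 in the probe numbering also had lower ratios, averaging −0.51 over named spots there and 0.04 at places 1 to 7. The parts of array group and spot place in the ratios of single receptors were not tested beyond the values given beside them.

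Against the C57BL/6J reference, 22 of the 58 probes had a positive and 20 a negative mean ratio by limma's moderated test at an adjusted p of 0.05. Every array had the same dye orientation and the same reference. A mean ratio therefore cannot be told apart from a dye effect on the probe or a trait of that reference RNA, here and for the single genes below. Over all spots the same test called 42.0% positive and 34.3% negative, 76.2% in all, so the members' shares of 37.9% and 34.5% lay near the background. The median of the members' means was −0.01 and that of all spots 0.04. Families differed in how the signs fell, which was not tested. Of 16 ionotropic glutamate receptor probes, 11 were positive and 3 negative, with a median mean of 0.14. Of 16 GABA-A probes, 4 were positive and 8 negative, with a median of −0.12, and all 3 glycine receptor probes were negative, with a median of −0.57. Place in the run of spots followed the same division. None of the 16 glutamate receptor probes lay at the eighth place, whereas 6 of the 16 GABA-A probes and 1 of the 3 glycine probes did. At the eighth place 1 member was positive and 9 were negative of 12, where 9.44% of all spots were positive and 77.8% negative. At places 1 to 7, 21 were positive and 11 negative of 46, where 46.6% of all spots were positive and 28.0% negative.

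**Figure D1:**
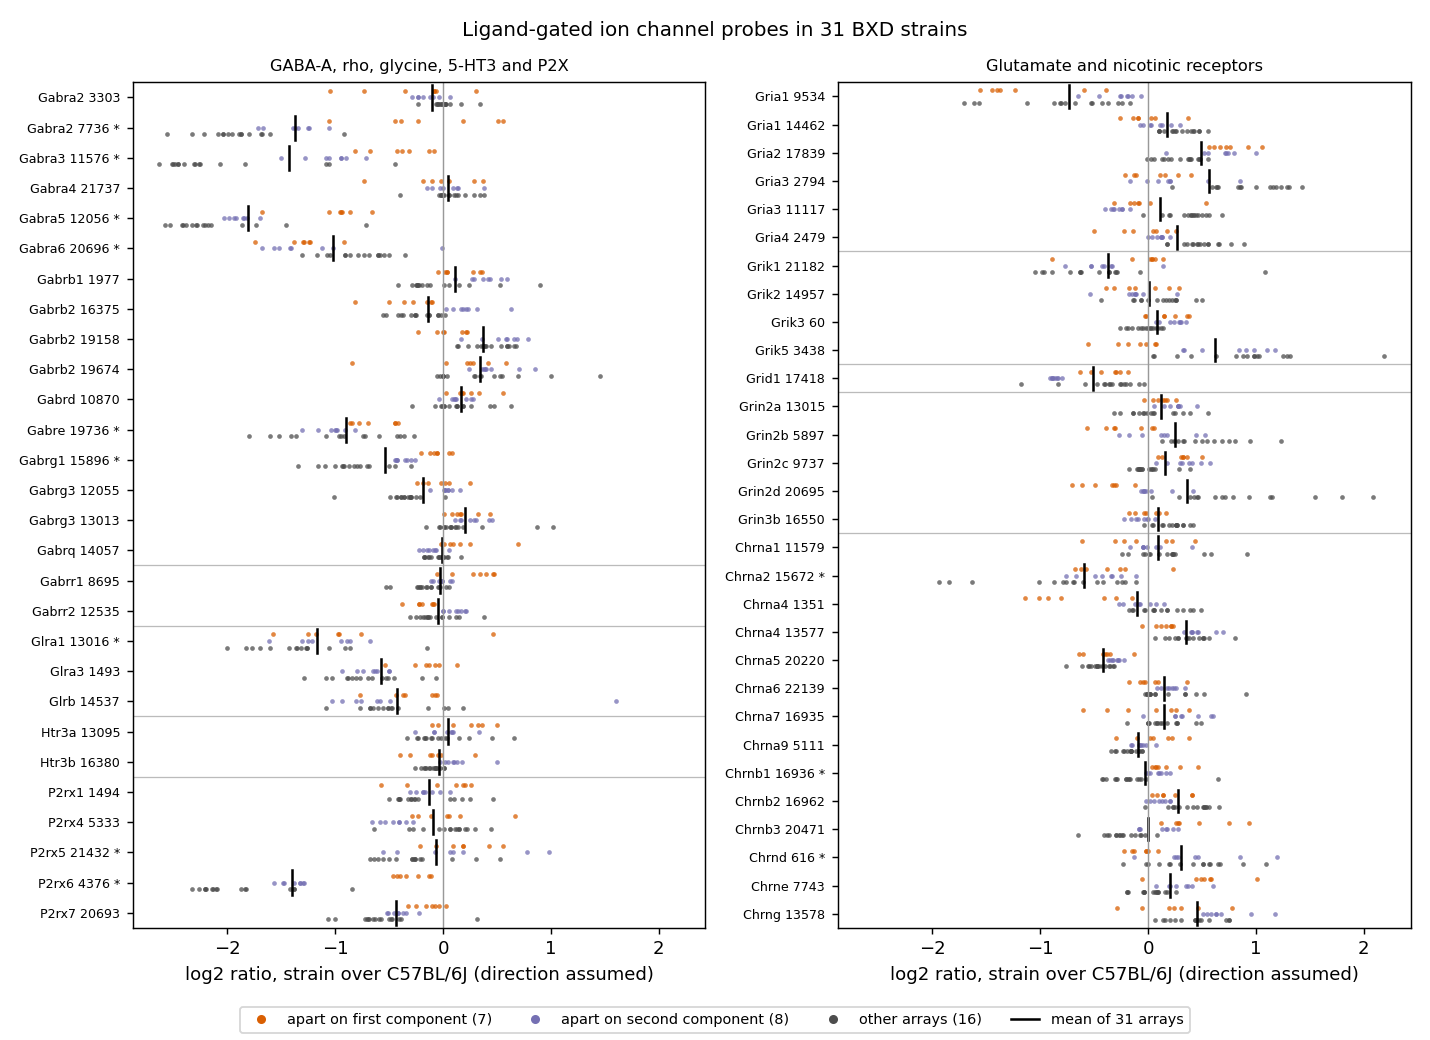
Log2 ratio (x axis) of each of the 58 receptor probes in each of the 31 strains. Each row is a probe with its gene and probe number, an asterisk marks the eighth place in a run of 8 spots, points are strains coloured by array group, and the black bar is the mean of 31. The 5 NMDA means lie between 0.09 and 0.36, and the lowest mean is that of Gabra5 at −1.80.

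**Figure D2:**
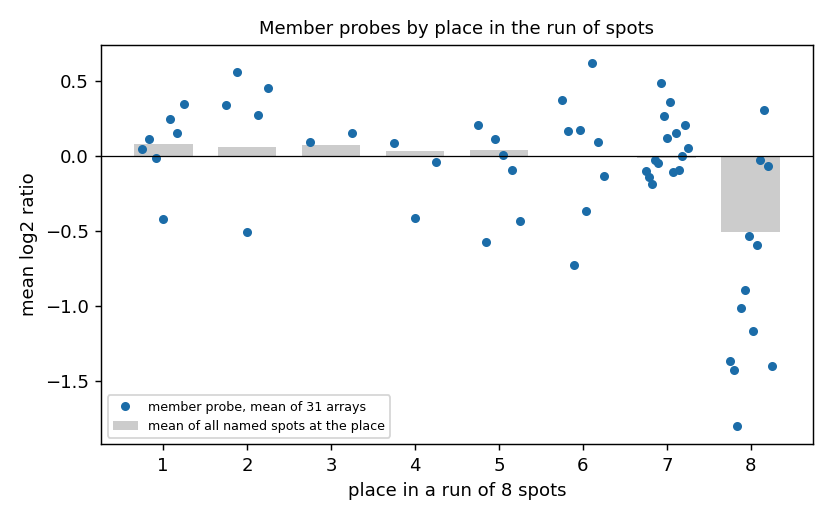
Mean log2 ratio over 31 arrays of each receptor probe (points) and of all named spots (bars) by place in the run of 8 spots. At the eighth place the bar is at −0.51 and the 12 receptor means run from −1.80 to 0.31, against −0.73 to 0.62 at places 1 to 7.

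Among the GABA-A alpha subunits, which set the benzodiazepine response and the cellular location of the receptor, lay the 2 lowest means of all members. Gabra5, whose receptors are known for tonic inhibition in hippocampal pyramidal cells, ranged from −2.58 in BXD2 through a median of −1.92 to −0.66 in BXD23, with a mean of −1.80 ± 0.58 (SD, n = 31; limma adjusted p = 3.83e-17). Gabra3, known from brainstem and cortical neurons, ranged from −2.64 to −0.08 around a median of −1.09 and had a mean of −1.43 ± 0.86 (SD, n = 31). Gabra6, the subunit of granule cells in cerebellum and cochlear nucleus, ranged from −1.74 to 0.00 around −1.04, with a mean of −1.02 ± 0.41 (SD, n = 31; adjusted p = 2.28e-14). In all 3 genes no strain lay above 0. All 3 probes were at the eighth place. With each array centred by place in the run, their means were −1.39, −1.01 and −0.60. Gabra4, which pairs with the delta subunit in thalamus and dentate gyrus, had no call, with a mean of 0.04 ± 0.23 (SD, n = 31; adjusted p = 0.339).

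Gabra2, the alpha subunit of many axo-axonic and forebrain synapses, is known to carry in C57BL/6J a private intronic deletion that lowers its expression. Its 2 probes gave unlike ratios. Probe 3303 ranged from −1.05 in BXD38 to 0.34 in BXD5 around a median of −0.05, and its mean of −0.10 ± 0.26 (SD, n = 31) was not called (adjusted p = 0.0575). Probe 7736, at the eighth place, ranged from −2.56 in BXD13 to 0.56 in BXD8 around −1.67, with a mean of −1.37 ± 0.81 (SD, n = 31; adjusted p = 1.31e-10). Lower expression in the reference would give a positive ratio under the assumed direction and a negative one if the ratio ran the other way. Both probes had negative means. Which strains carry the deletion was not analysed, and its part in these ratios was not tested. Probe 7736 averaged −0.12 ± 0.58 (SD, n = 7) on the PC1 arrays, −1.38 ± 0.22 (SD, n = 8) on the PC2 arrays and −1.91 ± 0.36 (SD, n = 16) on the core arrays. Its lowest ratios were thus on PC2 and core arrays, though BXD36 of the PC1 arrays was at −1.06. The place-centred mean of probe 7736 was −0.95.

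The other GABA-A subunits were split by probe. Gabre, an epsilon subunit of hypothalamic and monoaminergic neurons, ranged from −1.80 to −0.27 around −0.91 and was negative on all 31 arrays (mean −0.90 ± 0.39, SD; adjusted p = 1.09e-13). Gabrg1 averaged −0.54 ± 0.38 (SD, n = 31). These were the remaining probes at the eighth place, and place-centred means were −0.48 and −0.12. Gabrb2, the most abundant beta subunit of the brain, was measured by 3 probes. Probe 19158 ranged from −0.23 in BXD6 to 0.79 in BXD27 around 0.38, with a mean of 0.37 ± 0.25 (SD, n = 31; adjusted p = 7.66e-09). Probe 19674 averaged 0.34 ± 0.39 and reached 1.45 in BXD11 and −0.84 in BXD8. Probe 16375 averaged −0.14 ± 0.30 (adjusted p = 0.0175), so that the gene had calls of both signs. Gabrg3 did likewise, at 0.20 ± 0.25 for probe 13013 and −0.19 ± 0.25 for probe 12055. Gabrd, the delta subunit of extrasynaptic receptors, was positive in 26 of 31 strains with a mean of 0.16 ± 0.19 (SD). Gabrb1 at 0.12, Gabrq at −0.01 and the rho subunits Gabrr1 at −0.03 and Gabrr2 at −0.05 were not called.

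All 3 glycine receptor subunits had negative means. Glra1, the adult alpha subunit of spinal cord and brainstem whose mutations cause startle disease, ranged from −2.005 in BXD29 to 0.47 in BXD8 around −1.26, with a mean of −1.17 ± 0.49 (SD, n = 31; adjusted p = 4.06e-14). It lay at the eighth place, and its place-centred mean was −0.75. Glra3 and Glrb lay at other places. Glra3 ranged from −1.29 to 0.13 around −0.61 and averaged −0.57 ± 0.34 (SD, n = 31). Glrb, the beta subunit that binds gephyrin and anchors the receptor at synapses, averaged −0.42 ± 0.49 (SD, n = 31; adjusted p = 3.74e-05). Its median was −0.51 and its lowest value −1.08 in BXD5, but BXD22 stood far above the rest at 1.60.

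Among the AMPA receptor genes, 4 of 6 probes were positive and 1 negative. Gria2, whose edited subunit makes AMPA receptors impermeable to calcium, ranged from −0.01 in BXD24 to 1.05 in BXD28 around 0.48 and was above 0 in 30 of 31 strains (mean 0.49 ± 0.29, SD; adjusted p = 2.83e-10). Gria4 averaged 0.27 ± 0.30 (SD, n = 31). Gria1, the subunit inserted into synapses in long-term potentiation, had a probe of each sign at the same place in the run. Probe 9534 ranged from −1.70 in BXD5 to −0.06 in BXD42 around −0.59, with a mean of −0.73 ± 0.52 (SD, n = 31; adjusted p = 6.78e-09). Probe 14462 ranged from −0.26 to 0.55 around 0.15 and averaged 0.17 ± 0.21 (SD, n = 31; adjusted p = 0.000118). Of the Gria3 probes, 2794 ranged from −0.21 in BXD36 to 1.43 in BXD5 around 0.59, averaged 0.56 ± 0.50 (SD, n = 31) and was called, and 11117 averaged 0.11 ± 0.34 and was not (adjusted p = 0.0887). Over the whole set, 3 of the 6 genes with several probes, namely Gabrb2, Gabrg3 and Gria1, had probes called in opposite directions, as had 32.8% of all 1048 genes with several probes.

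All 5 NMDA receptor probes had positive means over the 31 arrays, at 1.07-fold to 1.28-fold. These were Grin2d at 0.36 ± 0.68, Grin2b at 0.25 ± 0.41, Grin2c at 0.16 ± 0.22, Grin2a at 0.12 ± 0.20 and Grin3b at 0.09 ± 0.18 (SD, n = 31 each). The GluN2 subunits encoded by the Grin2 genes bind glutamate and set the kinetics of the receptor. The smallest adjusted p was that of Grin2c, the cerebellar granule cell subunit, at 0.000694, followed by Grin2b at 0.00255 and Grin2a at 0.00503. No NMDA probe passed when a change of 1.2-fold was required in place of 0. Over all spots 12.4% passed as positive at that threshold. The spread was wide for 2 of the NMDA probes. Grin2d ranged from −0.70 in BXD8 to 2.09 in BXD5 around 0.29, and Grin2b from −0.56 in BXD20 to 1.23 in BXD21 around 0.24. They were above 0 in 19 and 23 of the 31 strains. The call of Grin2c was lost with each array centred by place in the run, at a mean of 0.06 (adjusted p = 0.185), and its mean on the core arrays alone was 0.0046. Grin2a, at 0.05, was not called on the core arrays alone. On the PC1 arrays alone Grin2d averaged −0.41, Grin2b −0.22 and Grin3b −0.0027, against 0.29 for Grin2c and 0.12 for Grin2a. Of the negative ones Grin2d alone was called. On the PC2 arrays alone Grin3b averaged −0.07.

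In the kainate family Grik5, which needs a GluK1 to GluK3 partner to form a channel, had the highest mean of all members. It ranged from −0.55 in BXD28 to 2.19 in BXD11 around 0.81, with a mean of 0.62 ± 0.60 (SD, n = 31; adjusted p = 1.95e-06). Grik3 averaged 0.08 ± 0.17 and was called positive, but its place-centred mean of 0.03 was not (adjusted p = 0.469) and its mean on the core arrays alone was −0.03. Grik1 averaged −0.37 ± 0.44 and was called negative, and Grik2 at 0.01 was not called. Grid1, a delta receptor that acts as a synaptic organiser bound by cerebellins, was negative in all 31 strains. It ranged from −1.18 in BXD32 to −0.03 in BXD19 around −0.41 (mean −0.51 ± 0.30, SD; adjusted p = 3.69e-10).

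Of the 14 nicotinic probes 7 were positive, 3 negative and 4 not called. Among the neuronal subunits, Chrna4 and Chrnb2 form the high-affinity nicotine receptor of the brain. Chrnb2 ranged from −0.03 to 0.66 around 0.24, with a mean of 0.28 ± 0.20 (SD, n = 31). Chrna4 probe 13577 ranged from −0.06 in BXD36 to 0.80 in BXD1 around 0.37 and averaged 0.35 ± 0.19 (SD, n = 31; adjusted p = 2.08e-10), whereas probe 1351 averaged −0.11 ± 0.40 and was not called. Chrna6, of dopaminergic neurons, averaged 0.15, and its place-centred mean of 0.07 was not called (adjusted p = 0.103). Chrna7, the homomeric subunit that binds alpha-bungarotoxin, also averaged 0.15. Chrna5, an accessory subunit of the medial habenula, had the narrowest spread of all 58 probes. It ranged from −0.76 in BXD16 to −0.13 in BXD28 around −0.40, with a mean of −0.42 ± 0.13 (SD, n = 31; adjusted p = 3.30e-15). Chrna2, at the eighth place, averaged −0.60 ± 0.48 with 1 strain above 0 and had a place-centred mean of −0.18, and Chrna9 averaged −0.09 ± 0.16. Of the 5 muscle-type subunits, Chrng, the fetal gamma subunit, ranged from −0.28 in BXD28 to 1.18 in BXD22 around 0.46. Chrng at 0.45 ± 0.30, Chrnd at 0.31 ± 0.38 and Chrne at 0.21 ± 0.28 were called positive, and Chrna1 and Chrnb1 were not called. Chrnd and Chrnb1 lay at the eighth place, with place-centred means of 0.72 and 0.39, both called positive. Of 5 probes for the muscle genes Acta1, Myh1, Ckm, Mylpf and Tnnt3, 0 were called positive and 4 negative, with a median of −0.16. Over all spots 42.0% were called positive and 34.3% negative. On the core arrays alone Acta1 averaged 0.29 and Myh1 0.07, while Ckm, Mylpf and Tnnt3 averaged −0.02, −0.24 and −0.29. Acta1 averaged −0.90 on the PC1 and −1.36 on the PC2 arrays. A link of these genes with the muscle-type subunits was not tested.

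The serotonin-gated subunits Htr3a at 0.05 ± 0.24 and Htr3b at −0.04 ± 0.17 (SD, n = 31 each) were not called. In the P2X family 0 of 5 probes were positive and 3 negative. P2rx6, a subunit that reaches the membrane mainly with P2X2 or P2X4, ranged from −2.33 in BXD11 to −0.11 in BXD36 around −1.41, with a mean of −1.40 ± 0.71 (SD, n = 31; adjusted p = 3.46e-12). It lay at the eighth place, and its place-centred mean was −0.99. P2rx7, the large-pore receptor of microglia, lay at the fifth place and ranged from −1.06 in BXD11 to 0.32 in BXD9 around −0.45 (mean −0.43 ± 0.29, SD; adjusted p = 4.08e-09). P2rx1 averaged −0.13 ± 0.26 (SD, n = 31). P2rx4 at −0.10 and P2rx5 at −0.07 were not called.

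The sign of 14 probes was called alike in each of the 3 array groups taken alone. The 4 positive ones were Gabrd, Gabrg3 probe 13013, Gria2 and Chrnb2. The 10 negative ones were Gabra3, Gabra5, Gabra6, Gabre, Glra1, Gria1 probe 9534, Grid1, Chrna2, Chrna5 and P2rx6. Of these, all but Gria1 probe 9534, Grid1 and Chrna5 lay at the eighth place, where 77.8% of all spots had a negative mean over the 31 arrays. None of the 4 positive ones lay there. Over all spots 12.2% were called positive and 13.7% negative in each of the 3 groups. Taken by group, 23.8% of all spots were called positive and 23.6% negative on the PC1 arrays alone, 39.1% and 35.8% on the PC2 arrays, and 40.7% and 35.4% on the core arrays. For 8 probes the sign was called in opposite directions in different array groups, namely those of Gabrb2 (16375), Gabrr1, Gabrr2, Gria3 (11117), Grin2d, Chrna4 (1351), Chrnb1 and Chrnb3, against 11.4% of all spots. Of the 58 probes, 8 were negative and 0 positive on all 31 arrays, where 6.74% of all spots were negative and 3.33% positive throughout. Gabra3, Gabra5, Gabra6, Gabre and P2rx6 among these 8 lay at the eighth place. The part of spot place in these counts was not tested.

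Several glutamate receptor probes lay wholly on one side of the core arrays. Grin2d ran from −0.70 to −0.12 on the PC1 arrays and from 0.04 to 2.09 on the core arrays, with means of −0.41 ± 0.20 (SD, n = 7) on the PC1 arrays and 0.85 ± 0.57 (SD, n = 16) on the core arrays. Grin2b ran from −0.56 to 0.05 on the PC1 arrays and from 0.13 to 1.23 on the core arrays. Gria2 stood the other way, from 0.57 to 1.05 on the PC1 arrays and from −0.01 to 0.55 on the core arrays. Chrnb3, a subunit of catecholaminergic neurons, ran from 0.12 to 0.93 on the PC1 arrays and from −0.65 to 0.09 on the core arrays. P2rx6 ran from −0.46 to −0.11 on the PC1 arrays and from −2.33 to −0.85 on the core arrays, and Gabrg1 from −0.21 to 0.09 on the PC1 arrays and from −1.35 to −0.30 on the core arrays. The 6 probes named are all the members whose ranges on the PC1 and core arrays did not overlap, against 9.04% of all spots. Grik5, without such a gap, averaged −0.14 ± 0.22 (SD, n = 7) on the PC1 arrays and 0.88 ± 0.54 (SD, n = 16) on the core arrays. On the PC2 arrays the ranges of 2 probes did not overlap with those of the core arrays, against 4.08% of all spots. Gabrb2 probe 16375 ran from 0.03 to 0.63 on the PC2 arrays and from −0.55 to 0.02 on the core arrays, and Gria3 probe 11117 from −0.40 to −0.17 on the PC2 arrays and from −0.04 to 0.68 on the core arrays. The arrays were grouped on all spots, the members included, so these gaps are a description and were not tested. Of the 12 members at the eighth place, 10 had a higher mean on the PC1 than on the core arrays, as had 63.2% of all named spots at that place.

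**Figure D3:**
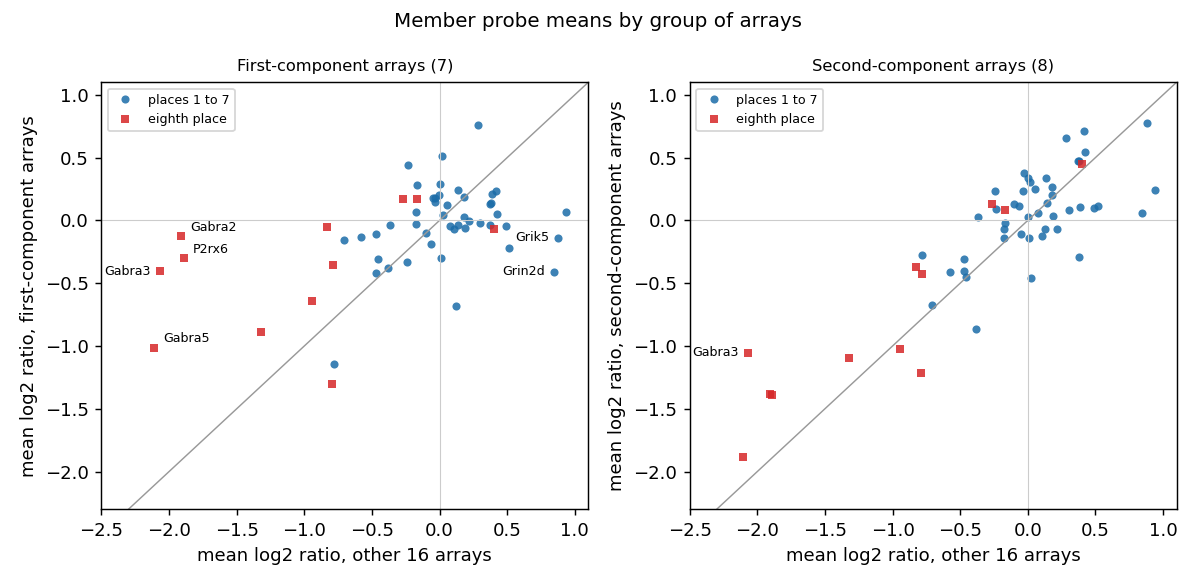
Mean log2 ratio of each receptor probe on the PC1 arrays (left, y axis) and the PC2 arrays (right, y axis) against its mean on the 16 core arrays (x axis), with squares for the eighth place and a line of equal means. On the PC1 arrays Gabra2 probe 7736 is at −0.12, against −1.91 on the core arrays, and Grin2d at −0.41, against 0.85.

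The comparison of BXD33-42 with BXD1-32 asked whether receptor expression differed between the later and the earlier strains. Gabra6 was the sole member called. It had −1.52, −1.57, −1.74, −1.38, −1.41, −1.12 and −1.68 in BXD33, BXD34, BXD36, BXD38, BXD39, BXD40 and BXD42, and ranged from −1.42 through a median of −0.91 to 0.00 in BXD1-32. The later strains thus stood at the low end of the earlier ones, with some overlap. Means were −1.49 ± 0.21 (SD, n = 7) in BXD33-42 and −0.88 ± 0.35 (SD, n = 24) in BXD1-32, a difference of −0.61 (SE 0.14; limma adjusted p = 0.0469). In the same test 111 of 23040 spots, or 0.482%, were called. All 7 later strains were PC1 or PC2 arrays and none a core array, whereas 16 of the 24 earlier strains were. With array group as a term the difference was −0.52 (SE 0.16; unadjusted p = 0.00305, adjusted p = 0.446) and 0 of 23040 spots were called, with 7.26% at an unadjusted p below 0.05. Within the PC1 arrays the difference was −0.36 and within the PC2 arrays −0.64, neither of them called. The earlier strains among the PC2 arrays were BXD15 at −1.02, BXD22 at −1.42 and BXD27 at −0.005. BXD27 thus stood far above the others there, and the comparison was not repeated without an earlier array. The call was lost when any of 6 of the 7 later arrays was left out, with adjusted p from 0.0508 to 0.110, and kept without BXD38, at 0.0462.

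Next in order came Gria3 probe 2794 and Gabrg3 probe 12055, which were not called. Gria3 probe 2794 ran from −0.21 to 0.55 in BXD33-42 and from −0.12 to 1.43 in BXD1-32, a difference of −0.64 (SE 0.18; adjusted p = 0.0671) that was −0.27 with array group as a term. Gabrg3 probe 12055 ran from −0.19 to 0.25 in BXD33-42 and from −1.01 to 0.06 in BXD1-32, a difference of 0.32 (SE 0.09; adjusted p = 0.0747) that was 0.10 with the term. Of the 58 probes 13, or 22.4%, had an unadjusted p below 0.05, near the 20.5% of all spots. With array group as a term 3 of the 58 did, or 5.17%.

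**Figure D4:**
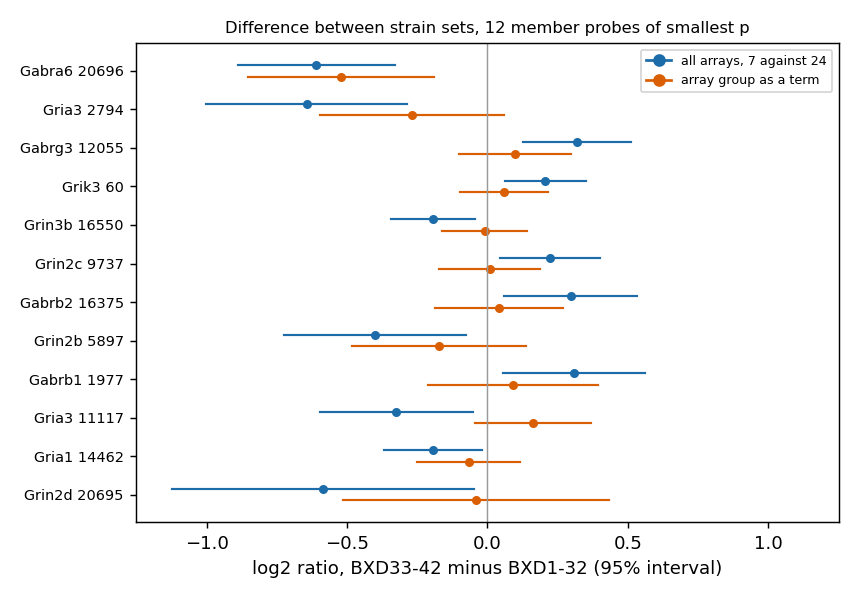
Difference in log2 ratio, BXD33-42 minus BXD1-32, with 95% intervals, for the 12 receptor probes of smallest p, without (blue) and with (orange) array group as a term. The Gabra6 interval runs from −0.89 to −0.33 without the term and from −0.85 to −0.19 with it, and the other 11 intervals with it cross 0.

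Variation between strains was described on the 16 core arrays, where the median SD was 0.26 over the members and 0.21 over all spots, and 34 of the 58 probes lay above the median of all spots. Every member at the eighth place was among these 34. Those members ran from percentile 62.7 of all spots for Chrnb1 to percentile 97.3 for Gabra3. The part of spot place in this spread was not tested. The widest interquartile range was that of Gabre at 0.82, followed by Grin2d at 0.69, Gria3 probe 2794 at 0.56, Gabrb2 probe 19674 at 0.53, and Chrna2 and Gria1 probe 9534 at 0.52 each. Extremes gathered on a few arrays. BXD5 held the highest or lowest core value of 34.5% of the members, such as Grin2d at its highest, 2.09, and Gria1 probe 9534 at its lowest, −1.70. BXD16 and BXD32 each held an extreme of 24.1% of the members. These arrays did the same over all spots, with 30.4%, 20.4% and 25.1%.

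Whether probes of one gene followed each other over strains was asked for the 6 genes with several probes, on the 16 core strains. Of the 6 pairs 0 passed after adjustment over the 1048 genes with several probes, of which 3, or 0.286%, did, and 0 had an unadjusted permutation p of r below 0.05. The coefficients ran from −0.34 for Chrna4 (rho −0.41; permutation p of r = 0.200, adjusted p = 0.673) to 0.34 for Gabrg3 (rho 0.68; permutation p of r = 0.190, adjusted p = 0.660). The rho of Gabrg3 had a permutation p of 0.00515 (adjusted p = 0.310) and that of Chrna4 one of 0.120 (adjusted p = 0.644). Without the 2 strains farthest from the median these were −0.18 and 0.16. Between them lay Gabra2 at −0.16, Gria3 at −0.10, Gabrb2 at −0.01 and Gria1 at 0.08. With 16 strains a moderate agreement could go unseen. Over all 31 strains, where the array groups enter, 2 of the 6 pairs passed, against 13.5% of the table's pairs. They had opposite signs, with Gria3 at r = 0.54 and Gabra2 at −0.50. With the leading 3 components removed 0 of the 6 passed, against 1.34%. Gabrg3 was then at 0.43 (permutation p = 0.0216, adjusted p = 0.284).

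**Figure D5:**
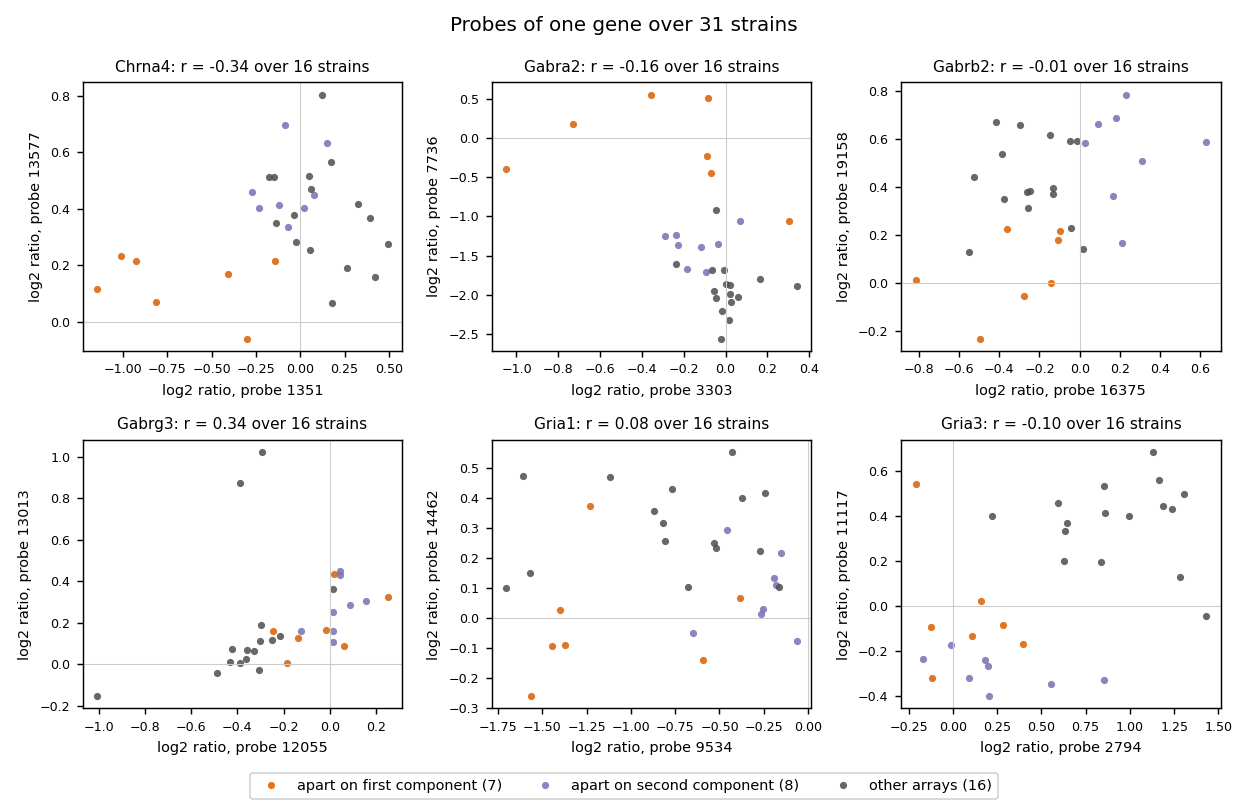
Log2 ratio of the 2 lowest-numbered probes of each of the 6 genes with several probes (x and y axes), one point for each of the 31 strains, coloured by array group. Titles give Pearson's r over the 16 core strains, from −0.34 for Chrna4 to 0.34 for Gabrg3.

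Subunits that assemble into one receptor were correlated over the core strains for the 12 of 21 listed pairs with both genes measured. Of the 12, 0 passed after adjustment over the pairs and 1 had an unadjusted permutation p of r below 0.05. This was Glra1 with Glrb, the adult synaptic glycine receptor, at r = −0.55 (rho −0.57; permutation p = 0.0289, adjusted p = 0.285). It was −0.40 without the 2 strains farthest from the median and −0.32 without BXD5. Htr3a with Htr3b was at −0.48 and Chrna1 with Chrnd at −0.46. Gria1 with Gria2, the main AMPA receptor of pyramidal cells, was at −0.05, Chrna4 with Chrnb2 at 0.13, and Gabra6 with Gabrd of granule cells at 0.01. A gene with several probes entered with its lowest-numbered probe alone. Gria1 thus stands for probe 9534 and Chrna4 for probe 1351, and their other probes were not paired.

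Receptor genes often lie in clusters, and 15 pairs of members neighbour each other in RefSeq. These pairs were added after the values had been seen. Of the 15, 2 passed on the core strains, and both were negative. Neighbouring genes outside the members were not correlated, so no share over the whole table stands beside this count. Gria2 and Glrb, adjacent on chromosome 3, had r = −0.70 (rho −0.61; permutation p = 0.00234, adjusted p = 0.0268 for r and 0.206 for rho). Leaving out 1 strain at a time gave −0.76 to −0.65, and leaving out the 2 strains farthest from the median gave −0.60. Gabra4 and Gabrb1, adjacent on chromosome 5 and read from opposite strands, also had r = −0.70 (rho −0.47; permutation p = 0.00357, adjusted p = 0.0268 for r and 0.250 for rho). There BXD5 held both ends, with 0.90 for Gabrb1 and −0.40 for Gabra4, and without it r was −0.41 (permutation p = 0.126). Within the PC1 arrays r was −0.11 for Gria2 with Glrb and 0.40 for Gabra4 with Gabrb1, and within the PC2 arrays it was 0.29 and 0.07. Over all 31 strains r was 0.02 for Gria2 with Glrb and −0.26 for Gabra4 with Gabrb1. With the first 3 components removed it was 0.08 and −0.20, and neither pair passed in these 2 settings. The pair of Gabra6 and Gabrb2 (probe 16375) on chromosome 11 was at −0.06, Gabrg3 (probe 12055) and Gabra5 on chromosome 7 at −0.26, and Chrnd and Chrng on chromosome 1 at 0.21. Here too only the lowest-numbered probe of a gene was used.

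Other genes of the synapse had means of both signs, where 42.0% of all spots were called positive and 34.3% negative. Of 16 probes for postsynaptic scaffolds 7 were positive and 5 negative, with a median of 0.08. Nlgn1, an adhesion protein of glutamatergic synapses, averaged 0.71 ± 0.25 with all 31 strains above 0. Gphn, the gephyrin scaffold of glycine and GABA-A receptors, averaged −0.99 ± 0.42 (SD, n = 31) on its probe at the eighth place, with none above 0, and −0.10 ± 0.23 on its probe at the fifth place, with 11 of 31 strains above 0. Of 16 probes for auxiliary and trafficking proteins 9 were positive and 5 negative. Of the AMPA receptor partners that carry the receptor to the synapse, Cacng2 had probes called in opposite directions, at 0.68 ± 0.33 and −0.24 ± 0.51, and Cacng3 was at −0.60 ± 0.25 (SD, n = 31 each). Of 22 probes for transmitter synthesis and transport 5 were positive and 9 negative, with the choline transporter Slc5a7 at −0.96 ± 0.29 and the glycine transporter Slc6a9 at −0.54 ± 0.17 (SD, n = 31). Both were below 0 in every strain, and both lay at the third place.

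Markers of cell types did not move in one direction either. Excitatory neuron markers were positive in 1 and negative in 3 of 6 probes, with the vesicular glutamate transporter Slc17a6 at −0.44 and −0.36. Interneuron markers were positive in 3 and negative in 4 of 7. The negative ones were Gad2 at −0.65 and −0.55, Vip at −0.29 and Pvalb at −0.19. The positive ones were Gad1 at 0.30, Sst at 0.26 and Slc32a1 at 0.17. The lower Gad2 probe and Pvalb lay at the eighth place. Oligodendrocyte markers were positive in 6 and negative in 1 of 7, with Cnp at 0.42 and Mbp at 0.39, −0.41 and 0.15 on its 3 probes. Astrocyte markers were positive in 2 and negative in 2 of 9, with means from −0.99 for Gja1, at the fourth place, to 0.34 for Gfap. Microglia markers were positive in 1 and negative in 3 of 4. Of the negative ones, Cx3cr1 and P2ry12 lay at the eighth place and C1qa, at −0.94, at the seventh. The part of cell composition in the receptor ratios was not tested.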

How the data were processed

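Per the labels, pooled RNA of each strain was hybridised with C57BL/6J reference RNA that held a spike-in mix. The deposited table holds the authors' log ratios, taken as log2, for 23040 spots on 31 arrays. R 2.0.0 and limma were among the authors' tools, per the submitters' processing notes, which give no step for either. How background was corrected was not given in the sources used. Every column holds one identical set of sorted values, as quantile normalisation leaves it, and any shift of a whole array is lost with it. The common median was 0.01. The lowest correlation between 2 arrays was 0.28. Intensities were not analysed here, so dim or saturated probes are not known, and precision is limited by the number of arrays.

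Symbols came from the platform annotation. Of the member probes, 39 had a RefSeq mRNA accession and all 39 stood under the same gene in GRCm38.p6. Upstream sequences are RefSeq's, searched on both strands. Means were tested against 0, and strain sets against each other, with limma 3.58.1 in R 4.3.3 (lmFit, eBayes, two-sided) over all spots with Benjamini-Hochberg adjustment at 0.05. The reference counts as 1 control sample, and its own spread and any dye effect are left out. P-values measure the spread between arrays of different strains. Correlations used two-sided permutation tests of 100000 resamples. Both procedures were checked on simulated data. Array groups were cut at the largest gap on each component. Full values were given for the 3 probes of smallest adjusted p in each family, genes with several probes, the 3 of smallest adjusted p between sets, the 6 widest interquartile ranges on core arrays and up to 3 genes of each companion list. Other genes are named with their mean, and probes set out by array group, spot place or neighbour were chosen after their values were seen. The members and lists were chosen with earlier results of these data known. Alternatives were other centring, array sets, weights, a 1.2-fold threshold and leaving out arrays.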

Additional observations from a re-analysis of the deposited data

Results flagged for a closer look

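Within BXD33-42, single arrays stood apart from the other 6 by the size of their gap relative to the range for 9 receptor probes. BXD38 did so for Gabra4 at −0.73 (others −0.10 to 0.38), Gabra5 at −0.95 (others −1.99 to −1.68), Gabrr1 at 0.34 (others −0.05 to 0.06), Chrna4 probe 1351 at −1.14 (others −0.30 to 0.08) and Chrna7 at −0.38 (others 0.25 to 0.60). BXD36 did so for Gria3 probe 11117 at 0.54 (others −0.40 to −0.09), Chrna5 at −0.64 (others −0.38 to −0.22) and P2rx4 at 0.67 (others −0.66 to −0.23). BXD40 did so for P2rx5 at 0.78 (others −0.21 to 0.18). BXD36 and BXD38 are the 2 PC1 arrays of this set, and BXD40 is a PC2 array. Chance gives such a gap in about 1 of 20 groups of independent values, and 14.8% of all spots had one, against 15.5% of the receptor probes.

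The difference of Gabra6 between BXD33-42 and BXD1-32, −0.61, passed the test of the difference itself without array group and not with it.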

How the results depend on the processing

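Counts of receptor probes moved as follows. The 22 positive means became 6 of 58 against 1.2-fold, where 12.4% of all spots were positive. On the PC1 arrays alone they became 8 of 58, where 23.8% of all spots were positive. The 20 negative means became 11 of 46 without eighth-place probes, where 28.0% of all spots were negative. Leaving out 1 array gave 22 to 23 positive and 20 to 22 negative means. The 1 set difference became 0 with array group as a term and within the PC1 or PC2 arrays, and 0 to 1 when a later array was left out. With array quality weights it became 30. The share of all spots called with those weights is not given here, so the 30 cannot be read as particular to the receptors. Over all 31 strains, where array groups enter, 2 probe pairs (Gria3 positive, Gabra2 negative) and 1 subunit pair (negative) passed in place of 0, and 0 neighbouring pairs in place of 2. With the first 3 components removed 0 neighbouring pairs passed. These causes were not tested. No paired analysis was possible because each strain number occurs once.

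Sign changes are listed where the mean or r was called with all arrays or in that setting; other values, called in neither, also changed sign. Signs turned on the PC1 arrays alone for Gabrr1 (0.28), Gria1 probe 14462 (−0.0165), Gria4 (−0.0452), Grik5 (−0.14), Grin2b (−0.22), Grin2d (−0.41), Grin3b (−0.0027), Chrna7 (−0.0357), Chrna9 (0.0644) and Chrnd (−0.0652). On the PC2 arrays alone they turned for Gabrb2 probe 16375 (0.23), Gabrg3 probe 12055 (0.0309), Gabrr2 (0.11), Gria3 probe 11117 (−0.29), Grin3b (−0.0711) and Chrnb1 (0.0841). On the core arrays alone they turned for Grik3 (−0.0315), Chrna4 probe 1351 (0.13) and Chrnb3 (−0.23; −0.13 without the PC1 arrays alone). Averaging the probes of a gene turned Gabrb2 (0.19), Gabrg3 (0.0077), Gria1 (−0.28) and Chrna4 (0.12), relative to 1 of their probes. Centring by place turned Chrnb1 (0.39) and P2rx5 (0.35). Over all 31 strains r turned to 0.54 for the Gria3 probes and −0.55 for Gria2 with Gria3 probe 2794.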
